A study of Mus musculus with 6 samples.

Results

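The genes described here are the annotated neighbours of *Sirt6* on mouse chromosome 10. They are the rows of the deposited gene table that start between 80.6 and 82.7 Mb (GRCm38) without *Sirt6* itself and without *Tdg*, and they number 92 of the 25166 genes in the table, 72 of them protein coding. The window was chosen by position after the fold changes of these libraries were known, so the differences of its members are a description and carry no test here. RNA-seq had been performed on freshly FACS-isolated muscle stem cells (MuSCs), the PAX7-positive cells that regenerate skeletal muscle, with 3 libraries labelled Sirt6mKO and 3 labelled Ctrl, both of strain C57BL/6. The legend to the study's RNA-seq gives male mice of 12 weeks. In Sirt6mKO mice a constitutive Cre recombinase driven by the Pax7 promoter removes floxed exons of *Sirt6*. The deletion is thus directed at the skeletal muscle lineage, and the study checked it by PCR in sorted MuSCs. It describes no such check in other cells of the muscle. The labels call the control genotype Wild type, whereas the study's legend describes Sirt6 fl/fl mice without the Pax7ICN Cre. The floxed allele was made in house. The study's reporting summary also lists a ROSA26-YFP reporter in the cross that gave Sirt6mKO mice. MuSCs were sorted by surface markers or by a fluorescent reporter, and the study's methods do not say which served these libraries. The labels do not name the animals behind the libraries. The study's methods call its replicates biological, but give a smaller number of them for RNA-seq than the 3 per group deposited here. The legend to this RNA-seq gives n = 3, as deposited.

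SIRT6 is a chromatin-bound NAD-dependent deacylase that removes acetyl groups from histone H3. The chromosome around its gene falls into 2 very different neighbourhoods. On the centromeric side lies a dense run of broadly used genes, among them *Eef2*, *Map2k2*, *Nfic* and the *Tle* co-repressor genes. On the telomeric side lies a cluster of C2H2 zinc finger genes, the largest family of DNA-binding factors in mammals, whose members often sit side by side as tandem copies and often repress transposable elements through a KRAB domain. Beyond the cluster follow *Tdg*, which encodes a DNA glycosylase of base excision repair, and *Glt8d2*, which encodes a predicted glycosyltransferase.

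Here 6 promoters of this cluster are shown, because some genes with different fold changes have closely related promoters and others do not. Each sequence covers 250 bases before and 50 bases after a transcription start, taken from RefSeq (GRCm38.p6), and is written 5′ to 3′ on the strand of the gene. Capitals mark the motif CCAAT on either strand.
Zfp873: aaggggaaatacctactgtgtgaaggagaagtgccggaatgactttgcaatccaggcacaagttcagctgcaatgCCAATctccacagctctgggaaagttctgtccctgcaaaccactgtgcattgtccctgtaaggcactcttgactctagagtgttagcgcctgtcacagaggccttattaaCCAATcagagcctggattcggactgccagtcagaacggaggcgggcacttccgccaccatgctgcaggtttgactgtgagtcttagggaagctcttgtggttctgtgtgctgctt
BC024063: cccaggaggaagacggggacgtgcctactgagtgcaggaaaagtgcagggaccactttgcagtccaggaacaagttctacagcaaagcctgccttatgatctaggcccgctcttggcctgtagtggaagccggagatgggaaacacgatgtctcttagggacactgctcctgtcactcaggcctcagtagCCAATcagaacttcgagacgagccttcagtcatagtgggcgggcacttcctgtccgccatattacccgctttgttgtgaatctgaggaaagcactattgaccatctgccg
AU041133: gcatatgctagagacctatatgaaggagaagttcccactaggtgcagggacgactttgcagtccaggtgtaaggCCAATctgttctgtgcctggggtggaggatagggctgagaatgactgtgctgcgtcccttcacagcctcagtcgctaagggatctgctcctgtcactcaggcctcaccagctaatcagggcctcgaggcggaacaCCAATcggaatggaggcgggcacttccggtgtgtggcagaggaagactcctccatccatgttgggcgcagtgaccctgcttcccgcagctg
Zfp781: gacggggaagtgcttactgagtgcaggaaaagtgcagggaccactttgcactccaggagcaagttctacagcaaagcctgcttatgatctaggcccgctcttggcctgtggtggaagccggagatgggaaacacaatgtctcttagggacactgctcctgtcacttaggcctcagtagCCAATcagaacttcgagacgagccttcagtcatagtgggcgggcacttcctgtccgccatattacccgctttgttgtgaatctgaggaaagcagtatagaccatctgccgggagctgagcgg
Zfp938: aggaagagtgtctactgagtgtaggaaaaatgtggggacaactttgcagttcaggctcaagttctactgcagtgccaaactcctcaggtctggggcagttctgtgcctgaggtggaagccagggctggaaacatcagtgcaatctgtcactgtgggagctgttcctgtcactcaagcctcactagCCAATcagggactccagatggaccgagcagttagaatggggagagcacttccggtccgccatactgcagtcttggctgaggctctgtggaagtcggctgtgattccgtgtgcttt
Gm4924: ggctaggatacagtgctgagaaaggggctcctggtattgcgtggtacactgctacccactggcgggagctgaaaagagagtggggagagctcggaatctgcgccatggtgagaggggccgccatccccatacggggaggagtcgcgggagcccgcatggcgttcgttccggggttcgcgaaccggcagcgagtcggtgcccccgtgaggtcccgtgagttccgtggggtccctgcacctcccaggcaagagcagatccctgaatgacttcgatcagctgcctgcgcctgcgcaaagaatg

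These windows lie at chr10:82047873-82048172 (*Zfp873*, plus strand), chr10:82083070-82083369 (*BC024063*, plus), chr10:82127763-82128062 (*AU041133*, plus), chr10:81930463-81930762 (*Zfp781*, minus), chr10:82241231-82241530 (*Zfp938*, minus) and chr10:82354275-82354574 (*Gm4924*, plus). The promoter of *Zfp781* was identical over all 300 bases to that of *Gm3055*, a gene of the same cluster, and both matched the promoter of *BC024063* at 96.5% of 289 aligned positions. Among the 8 zinc finger genes telomeric of *Sirt6* other than *Gm4924*, the 28 pairs of promoters had identities of 57.6 to 99.6% over 257 to 329 aligned positions, with a median of 66.1%. *AU041133* lay at the lower end, at 57.6 to 66.7% to the other 7. For comparison, the promoter of *Zfr2*, outside the cluster, matched the same 8 at 54.8 to 58.2% over 225 to 273 positions. The promoter of *Gm4924* matched them at 53.1 to 62.5% over only 88 to 291 positions, which is no closer than *Zfr2* apart from its pair with *Zfp433* (62.5% over 88 positions). It held 23 CpG dinucleotides, where the median was 7 over all 32851 promoters of the RefSeq set. CCAAT was found in 6 of the 9 promoters of zinc finger genes telomeric of *Sirt6* and in 37.4% of all promoters. It was in the promoters of *Zfp873*, *BC024063* and *AU041133*, with higher means in Sirt6mKO, and of *Zfp938*, which was level between the groups. It was also in those of *Gm3055*, with a lower mean, and of *Gm10778*, with a very low signal. It was not in that of *Gm4924*, which was higher, nor in those of *Zfp433* and *Gm32687*, with lower means. A relation of the motif to the fold changes was not tested. A match describes the letters of the window and no factor bound there. Promoters were found for 64 of the 92 members.

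All values below are signal, which is the authors' read number per gene after scaling for the depth of each library and rounding. Between 1267027 and 3209958 reads, recovered from the rounded signal, lay behind a library, and 1 read stood for a signal of 0.729 to 1.79. The MuSC markers *Pax7*, *Myf5*, *Itga7*, *Cd34*, *Vcam1*, *Calcr*, *Chodl* and *Sdc4* were present in both groups, with a summed signal of 10751 to 11145 in Sirt6mKO and 12510 to 13241 in Ctrl. Every Sirt6mKO sum was below every Ctrl sum. By the thresholds for a call given below, limma-trend called 0 of the 8 and limma voom on the recovered reads 0, with 4 at an unadjusted p under 0.05. In bulk samples such as these, fewer cells of a type and less RNA per cell cannot be told apart. *Sirt6* (ENSMUSG00000034748) read 19, 20 and 13 in the Sirt6mKO libraries and 18, 17 and 20 in Ctrl. Its gene-level signal thus did not separate the groups, and since it sums the deleted and the remaining exons it does not check the labels. The groups are therefore named by their labels throughout.

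A mean signal of at least 5 over the 6 libraries was needed for a fit, and 56 of the 92 members reached it. The other 36 had mean signals of at most 4.83. Fold changes were fitted by limma-trend on log2(signal + 1) across all 14227 such genes of the table and are given on that scale, which understates changes of low genes. A gene was called when its fold change was at least 2 and its p, adjusted over all these genes by Benjamini-Hochberg, did not exceed 0.05. In the window 4 members were called higher in Sirt6mKO (*Zfp873*, *BC024063*, *Gm4924* and *Glt8d2*), where 1.57% of all tested genes were called higher. Only *1190007I07Rik* among the tested members was called lower (1 gene), where 1.02% of all tested genes were called lower. The groups did not overlap for 8 members with every Sirt6mKO library above every Ctrl library (11.1% of all tested genes) and for 8 with every Sirt6mKO library below (10.1% of all tested genes). The median log2 fold change of the tested members was 0.014, and that of all tested genes was 0.00194. The numbers of called members follow from the choice of the window and are read no further.

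The position of the called members is likewise a description of a window chosen with these values known, beside the 2.59% of all tested genes called in either direction. Of the 42 tested members centromeric of *Sirt6*, 0 were called by limma-trend, 4 had an unadjusted p under 0.05, and limma voom on the recovered reads called 0. Their log2 fold changes ran from -0.72 to 0.30, and 37 of the 42 were smaller than 0.5 in size. Of the 14 tested members on the telomeric side 5 were called, and 3 had log2 fold changes smaller than 0.5 in size. All 5 lay in a stretch of 643 kb that began 420 kb beyond the end of *Sirt6*, from the start of *Zfp873* at 82048123 to the end of *Glt8d2* at 82690650. The tested telomeric members had low levels, with a median mean signal of 13.8 against 69.5 for the tested members on the centromeric side. The members that were not tested lay lower still and are not in these medians.

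**Figure D1:**
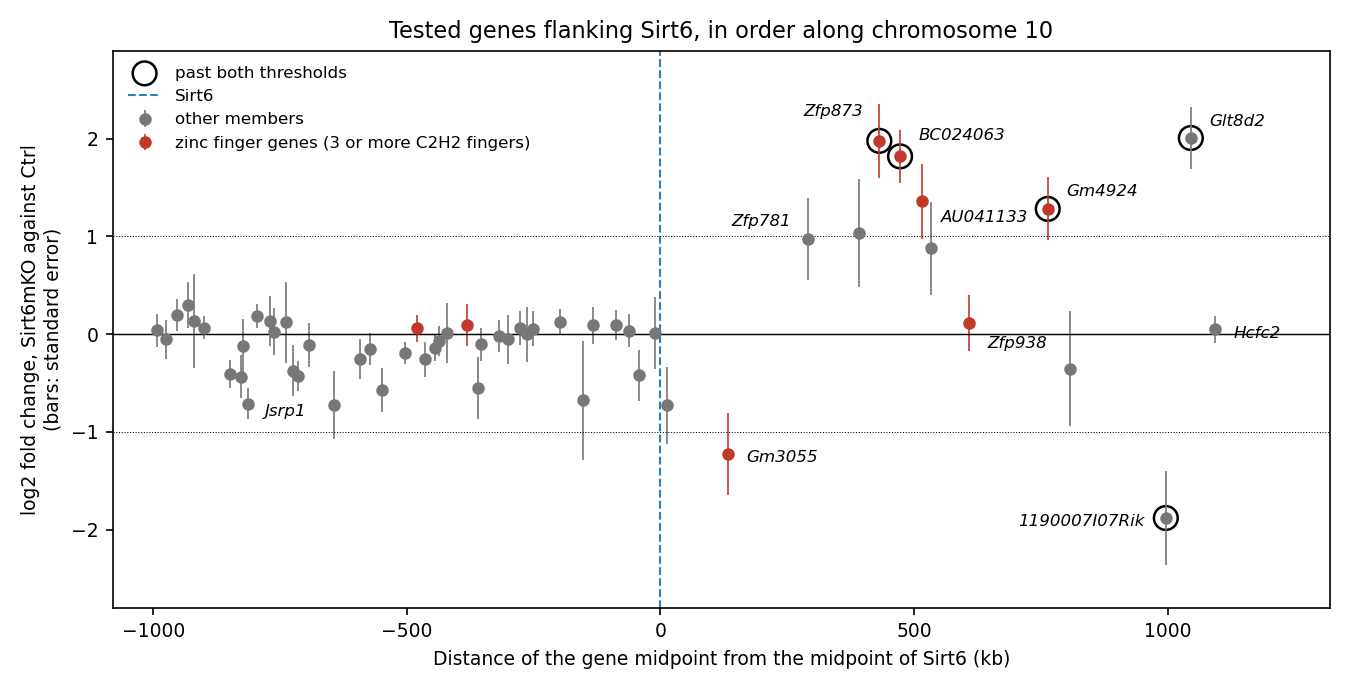
Log2 fold change (Sirt6mKO against Ctrl, limma-trend, bars are standard errors) of the 56 tested members against the distance of the gene midpoint from the midpoint of *Sirt6* in kb, with negative distances centromeric, zinc finger genes in red, circles around the 5 called genes and dotted lines at 2-fold. The points left of *Sirt6* stay between -0.72 and 0.30, and the points right of it run from -1.88 to 2.01.

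*BC024063* (ENSMUSG00000112160, 82083353 to 82111216, plus strand), whose annotated coding sequence holds 24 C2H2 fingers, had signals of 42, 32 and 48 in Sirt6mKO and of 11, 10 and 11 in Ctrl. The lowest Sirt6mKO library was far above the highest Ctrl library. The means were 40.7 ± 8.08 and 10.7 ± 0.58 (SD, n = 3 each), and the log2 fold change was 1.82 ± 0.27 (SE), which is 3.53-fold. Stretches of 75 bases were compared, the read length that the study's methods give for muscle tissue. Of those in its transcripts, 44.5% also occur in transcripts of other genes, with *Gm3055* as the gene that shares the most. The authors left out reads that aligned to several places, so that reads lying wholly in such stretches were not counted.

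*Zfp873* (ENSMUSG00000061371, 82048123 to 82064745, plus strand) lies just before it and holds 17 fingers. Its signals were 25, 20 and 27 in Sirt6mKO and 9, 4 and 4 in Ctrl, so every Sirt6mKO library was again above every Ctrl library. The means were 24.0 ± 3.61 and 5.67 ± 2.89 (SD, n = 3 each), with a log2 fold change of 1.98 ± 0.38 (SE) or 3.94-fold. None of its stretches of 75 bases occurs in another gene (0%). The call of *Zfp873* was lost when any 1 of the 3 Sirt6mKO libraries was left out, with log2 fold changes of 1.89 to 2.10.

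*AU041133* (ENSMUSG00000078435, 82128013 to 82153065, plus strand), with 14 fingers, follows *BC024063* and had signals of 22, 19 and 32 in Sirt6mKO and of 9, 14 and 5 in Ctrl. The groups did not overlap. The log2 fold change of 1.36 ± 0.39 (SE), or 2.56-fold, did not pass the adjusted p. Its sequence too is its own (0% of stretches shared).

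*Gm4924* (ENSMUSG00000073427, 82354255 to 82422882, plus strand) stands apart at the telomeric end of the cluster and holds 18 fingers. It had signals of 22, 19 and 26 in Sirt6mKO and of 11, 8 and 7 in Ctrl, with no overlap. The means were 22.3 ± 3.51 and 8.67 ± 2.08 (SD, n = 3 each), and the log2 fold change was 1.28 ± 0.32 (SE), which is 2.43-fold. When each library was left out in turn, the call was kept in 1 fit of 6, and it was lost with limma voom, without the filter on low values and with the replicate number as a block.

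Between *AU041133* and *Gm4924* lies *Zfp938* (10 fingers, minus strand), which was level. Its signals of 17, 19 and 21 in Sirt6mKO and of 22, 15 and 16 in Ctrl overlapped, and its log2 fold change was 0.11 ± 0.29 (SE). Levels per length can be ordered only among the 4 genes of the cluster with at most 0.1% of shared stretches, since shared reads were dropped. In Ctrl these were *Zfp938* at 8.30 signal per kb of exon, *AU041133* at 3.54, *Zfp873* at 1.78 and *Gm4924* at 1.38. In Sirt6mKO the order was *AU041133* at 9.24, *Zfp938* at 8.93, *Zfp873* at 7.55 and *Gm4924* at 3.54 signal per kb. *AU041133* and *Zfp938* were closer to each other there than their libraries spread.

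Near-identical copies nearer to *Sirt6* had fold changes of opposite sign, neither of which was called. *Gm3055* (3 fingers in its annotated coding sequence, minus strand) had signals of 5, 13 and 5 in Sirt6mKO and of 21, 13 and 20 in Ctrl. The groups met at 13, and the log2 fold change of -1.23 ± 0.42 (SE) did not pass. *Zfp781* (minus strand) had signals of 7, 10 and 12 in Sirt6mKO and of 4, 4 and 5 in Ctrl, which did not overlap. Its log2 fold change was 0.98 ± 0.42 (SE), also not called. These genes share 90.1% (*Gm3055*) and 94.4% (*Zfp781*) of their stretches of 75 bases with other genes. Each is the gene that shares the most with the other, so their signal rests on the few reads that tell the copies apart. Fewer than 3 fingers were found in the annotated coding sequence of *Zfp781*, which is therefore not counted among the zinc finger genes.

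Another such pair is *Zfp433* and *Gm32687*, with 17 fingers each and promoters alike at 99.6% of aligned positions. *Gm32687* had a signal of 0 in all 3 Sirt6mKO libraries and of 5, 2 and 5 in Ctrl, which are 4, 3 and 3 reads. Against a limit of 3 reads over the 3 Sirt6mKO libraries together, *Gm32687* was at least 4.38-fold lower if the 10 Ctrl reads are taken as fixed. With counting error in both groups, the exact 95% interval of the scaled Sirt6mKO to Ctrl ratio reached up to 0.34. That is a weaker bound, and it covers counting error only. *Zfp433* had signals of 4, 4 and 2 in Sirt6mKO and of 7, 1 and 11 in Ctrl, which overlapped. *Gm10778* (14 fingers), the nearest of the cluster to *Sirt6*, had at most 3 in any library. In all, 6 of the 9 telomeric zinc finger genes were tested and 3 were called higher (1.57% of all tested genes), 0 lower (1.02%). These 3 are among the genes around which the window was chosen. In 5 of the 9, over 40% of the stretches of 75 bases are shared with other genes.

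**Figure D2:**
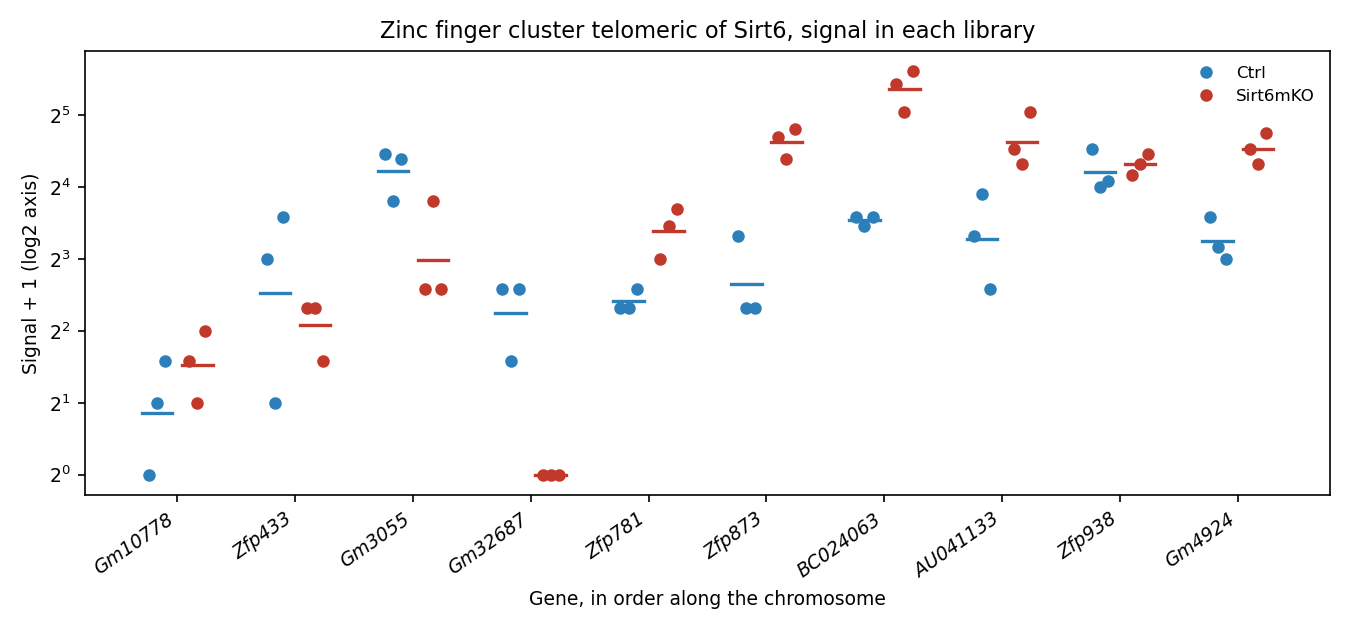
Signal + 1 on a log2 axis in each of the 3 Ctrl (blue) and 3 Sirt6mKO (red) libraries for the 9 zinc finger genes telomeric of *Sirt6* and *Zfp781*, in order along the chromosome, with lines at the mean of log2 values. *Zfp781*, *Zfp873*, *BC024063*, *AU041133* and *Gm4924* separate with Sirt6mKO above, *Gm32687* separates with Sirt6mKO at 0, and *Zfp938* overlaps.

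Of the 12 telomeric members not annotated as protein coding, 3 separated with Sirt6mKO above (*Gm8290*, *Gm33378* and *Gm47572*) and 1 with Sirt6mKO below (*Gm8274*), and 3 of the 12 were tested. *Gm8274*, a processed pseudogene, had 0 in all 3 Sirt6mKO libraries and 2, 1 and 4 in Ctrl, which are about 2, 1 and 2 reads. It lies within the span of *Gm32687* on the same strand, outside its exons, and shares 81.2% of its stretches of 75 bases with other genes. The values of these genes are therefore not taken as separate observations. *Gm8290*, annotated as a processed pseudogene, had signals of 7, 4 and 9 in Sirt6mKO and of 0, 1 and 0 in Ctrl. These are about 23 reads against 1 read, worked back from the rounded signal, which several read numbers can give. The ratio of these reads after scaling was 17.5, with an exact 95% interval of 2.85 to 722 that covers counting error only and not the rounding. *Gm33378* had signals of 9, 10 and 9 in Sirt6mKO and of 7, 1 and 7 in Ctrl, with a log2 fold change of 1.03 ± 0.55 (SE), which was 0.37 without Ctrl replicate 2. *Gm47572* had 6, 7 and 9 against 4, 2 and 5. Neither was called, and both are annotated only as TEC, a class of transcripts to be experimentally checked. *Gm8274*, *Gm8290* and *Gm47572* were chosen for mention after their values were seen.

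Around *Glt8d2*, at the telomeric end of the window, adjacent genes differed in opposite directions. *Glt8d2* (ENSMUSG00000020251, 82650433 to 82690650, minus strand) had signals of 35, 34 and 58 in Sirt6mKO and of 10, 12 and 7 in Ctrl. Sirt6mKO replicate 3 was the highest, and the other 2 Sirt6mKO libraries also stood clear of Ctrl. The means were 42.3 ± 13.6 and 9.67 ± 2.52 (SD, n = 3 each), and the log2 fold change of 2.01 ± 0.32 (SE), or 4.02-fold, differed from that of *Zfp873* by less than either standard error.

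*1190007I07Rik* (ENSMUSG00000063320, 82619851 to 82623228, minus strand), which encodes a small mitochondrial protein, had signals of 3, 2 and 1 in Sirt6mKO and of 9, 11 and 9 in Ctrl. The Sirt6mKO values are 4, 3 and 1 reads. The log2 fold change was -1.88 ± 0.48 (SE), or 3.68-fold lower. When each library was left out in turn, its call was kept in 0 fits of 6, and without Ctrl replicate 2 its mean fell under the minimum for a fit.

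*Tdg*, which lies between these genes and is no member, had signals of 31, 30 and 36 in Sirt6mKO and of 71, 112 and 102 in Ctrl. Its log2 fold change was -1.50 ± 0.21 (SE), or 2.84-fold lower, and it was called. The 3′ exons of *Tdg* and *Glt8d2* overlap on opposite strands over 367 bases. The authors left out reads on more than 1 gene, and whether strand was used in counting is not given in the sources used here, so reads of this overlap cannot be assigned. Of the 75-base stretches of *Glt8d2* 5.0% occur in other genes, with *Tdg* as the gene that shares the most. For *Tdg* it is 33.8%, and its pseudogene *Tdg-ps* shares the most.

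The next gene, *Hcfc2*, encodes a host cell factor homologue and was level, with 126, 123 and 146 in Sirt6mKO and 128, 139 and 115 in Ctrl (log2 fold change 0.048 ± 0.14, SE). It is the last tested gene inside the window, after *Glt8d2*. The first 2 tested genes outside that end were *Nfyb*, at 104, 101 and 106 against 123, 142 and 122, and *Txnrd1*, at 256, 239 and 266 against 229, 242 and 251. At the centromeric end, the first 2 tested genes inside were *Csnk1g2* and *Btbd2*, with log2 fold changes of 0.038 ± 0.17 and -0.054 ± 0.20 (SE). Just outside lay *Abhd17a* at 0.23 ± 0.20 and *Klf16* at 1.05 ± 0.33 (SE), the latter with 22, 23 and 20 in Sirt6mKO and 10, 14 and 7 in Ctrl and not called.

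**Figure D3:**
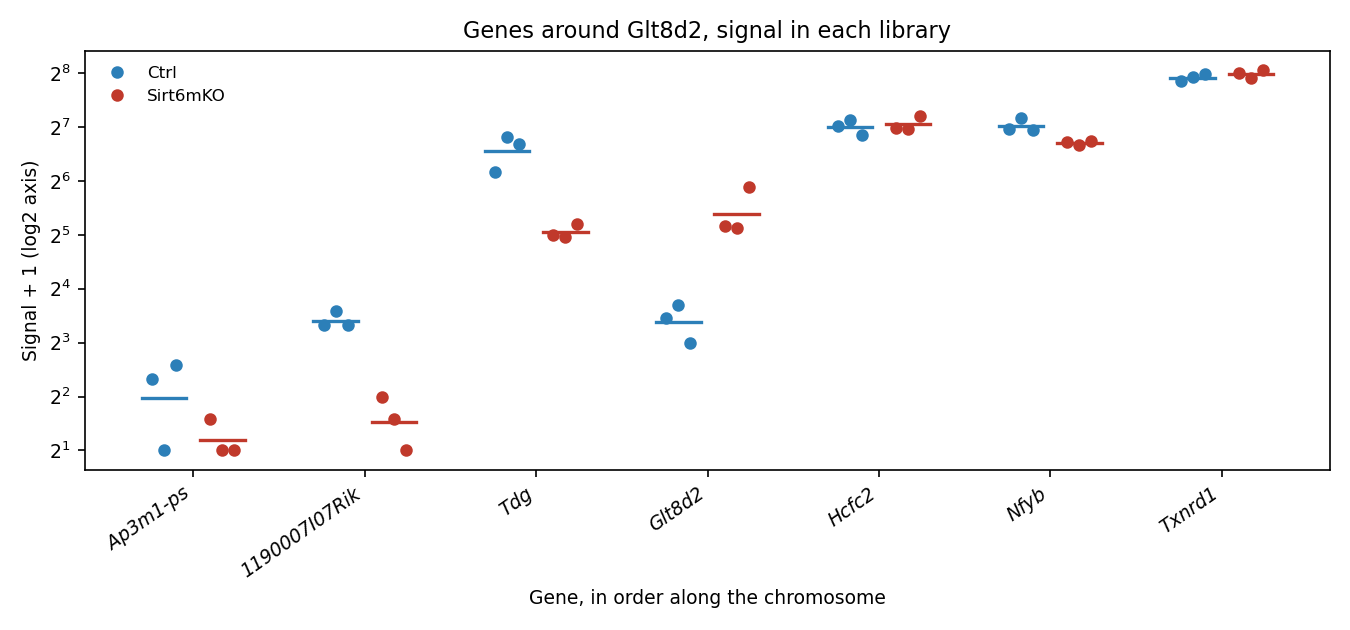
Signal + 1 on a log2 axis in each of the 3 Ctrl (blue) and 3 Sirt6mKO (red) libraries for 7 genes of the telomeric end, in order along the chromosome, of which *Tdg*, *Nfyb* and *Txnrd1* are no members, with lines at the mean of log2 values. *1190007I07Rik* and *Tdg* are lower and *Glt8d2* higher in all 3 Sirt6mKO libraries, and *Hcfc2* overlaps.

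Markers of cells other than MuSCs were also read. Of 8 fibroblast markers 3 were called higher (*Col1a1*, *Col1a2* and *Pdgfra*) and 0 lower, with a summed signal of 9674 to 11751 in Sirt6mKO and 6755 to 10482 in Ctrl. Tendon markers summed to 46 to 537 and 34 to 55, and myofiber markers to 289 to 1344 and 259 to 288, in Sirt6mKO and Ctrl respectively, with *Acta1* as the 1 gene of both lists called by limma-trend and 0 called by limma voom. In limma-trend 6 of the 8 fibroblast, 2 of the 4 tendon and 4 of the 5 myofiber markers had an unadjusted p under 0.05. Endothelial markers (3 of 4 in the table) summed to 24 to 38 and 9 to 38, immune markers (2 of 4 in the table) to 36 to 71 and 35 to 61, and Schwann cell markers to 23 to 66 and 42 to 72, but only 1, 1 and 2 markers of these lists reached the minimum for a fit, with 0 called by either tool and 0 at an unadjusted p under 0.05. No marker in the table was at 0 in every library of a group. The part of these cells in the values of *Glt8d2* and the zinc finger genes was not tested.

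The centromeric side holds the highly used genes of the window. *Eef2*, the elongation factor that moves the ribosome along the mRNA, had by far the highest level, at 2671 signal per kb of exon in Ctrl and 2413 in Sirt6mKO. Its signals were 7606, 7727 and 8730 in Sirt6mKO and 7804, 9367 and 9468 in Ctrl, which overlapped (log2 fold change -0.14 ± 0.13, SE). Next in Ctrl came *Jsrp1* at 135 and *Nfic* at 134 signal per kb, which did not differ beyond their spread, and then *Tle5* at 98.3. *Oaz1*, *Mknk2*, *Ap3d1*, *Sgta*, *Csnk1g2* and *Ncln* followed between 72.1 and 44.9 signal per kb.

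*Jsrp1*, which encodes a protein of the junctional sarcoplasmic reticulum in muscle, was the clearest exception to the level course of these genes. Its signals were 128, 91 and 110 in Sirt6mKO and 157, 208 and 174 in Ctrl. The groups did not overlap, and the log2 fold change of -0.71 ± 0.16 (SE), or 1.64-fold lower, passed the adjusted p but not the minimum fold. The transcription factor gene *Nfic* overlapped, with 977, 1021 and 883 against 1002, 952 and 710. So did the co-repressor gene *Tle5*, with 360, 310 and 317 against 378, 370 and 235.

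**Figure D4:**
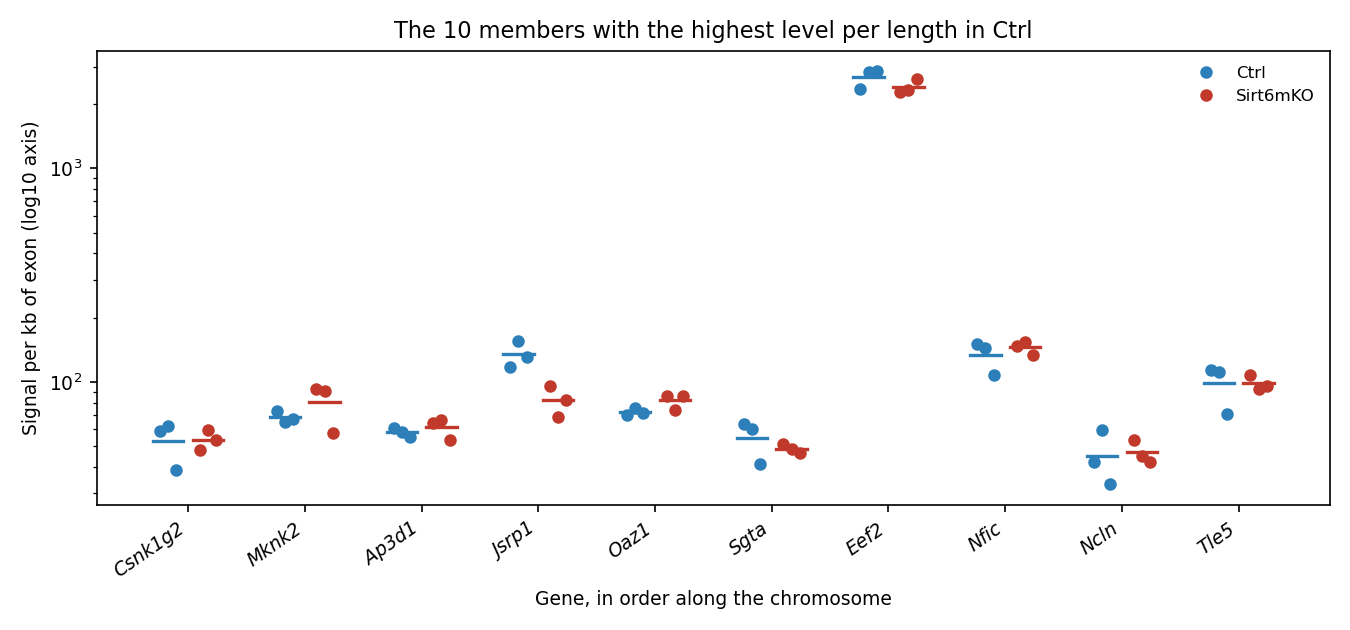
Signal per kb of exon on a log10 axis in each of the 3 Ctrl (blue) and 3 Sirt6mKO (red) libraries for the 10 members with the highest level per length in Ctrl, in order along the chromosome, with lines at the group means. *Eef2* lies far above the others, and *Jsrp1* is the gene of these 10 whose groups separate.

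On the centromeric side 7 of 42 tested members had groups that did not overlap (16.7%), a smaller share than the 21.2% of all tested genes. With Sirt6mKO above there were 0, where the share over all tested genes was 11.1%. All 7 had Sirt6mKO below, a larger share than the 10.1% of all tested genes. Besides *Jsrp1* these were *Dot1l*, *Plekhj1*, *Gng7*, *Thop1*, *Map2k2* and *Pias4*, chosen for mention after their values were seen. *Dot1l*, the H3K79 methyltransferase gene, had 294, 347 and 229 in Sirt6mKO and 394, 378 and 367 in Ctrl (log2 fold change -0.41 ± 0.14, SE). *Map2k2*, the gene of the kinase MEK2, had 222, 204 and 198 against 231, 245 and 238, a smaller difference (-0.19 ± 0.12, SE). None of these 6 was called.

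By role, of 6 genes of translation and RNA processing (*Eef2*, *Mrpl54*, *Lsm7*, *Sf3a2*, *Snord37*, *Timm13*) 5 were tested, 0 were called by limma-trend or by limma voom, and 0 had an unadjusted p under 0.05, with a median log2 fold change of -0.14. This list also holds *Timm13*, which encodes a chaperone of mitochondrial protein import. Of 15 kinase and signalling genes 12 were tested and 0 were called by either, with 1 at an unadjusted p under 0.05 and a median of -0.044. That list was drawn broadly and also holds genes of other roles, among them *Ap3d1*, a subunit gene of the AP-3 vesicle adaptor, whose signal was the highest of the list, with 569, 591 and 475 in Sirt6mKO and 541, 521 and 493 in Ctrl. All 11 listed chromatin and transcription genes in the window were tested, with 0 called by either, 2 at an unadjusted p under 0.05 and a median of -0.054. That list leaves out the zinc finger genes telomeric of *Sirt6*, among them the called ones, and the *Tle* genes. Of 4 metabolic and secretory genes in the window 3 were tested, of which *Glt8d2* was called higher and *Sppl2b*, an intramembrane protease gene, was level at 0.025 ± 0.24 (SE). The 11 genes with 3 or more C2H2 fingers include *Zbtb7a* and *Zfr2* on the centromeric side, which were level at log2 fold changes of 0.061 ± 0.14 and 0.091 ± 0.21 (SE). Over the 8 tested of them the median was 0.70, and over the 6 telomeric ones it was 1.32, beside 0.00194 over all tested genes. Both sets hold *Zfp873*, *BC024063* and *Gm4924*, around which the window was chosen. These medians follow from that choice and are read no further.

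Windows of the same 2.1 Mb on either side were read for comparison, without a test between windows. The centromeric one held 77 genes with 51 tested, of which 2 were called, and the telomeric one 21 genes with 13 tested, of which limma-trend and limma voom called 0 and 2 had an unadjusted p under 0.05. In the rest of chromosome 10, 15 of 610 tested genes were called (2.46%), and the groups did not overlap for 21.3% of them. In the window itself 16 of 56 tested members had groups that did not overlap (28.6%), with 16.7% on the centromeric and 64.3% on the telomeric side. The summed signal of the 92 members was 13512 to 13958 in Sirt6mKO and 13904 to 15456 in Ctrl, most of it from *Eef2*.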

How the data were processed

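RNA-seq of MuSCs was deposited as 1 table with 3 Sirt6mKO and 3 Ctrl libraries, and 0 of its columns of per-sample values were left unused. Per the methods, the authors used STAR for alignment to mm10 (GRCm38) and featureCounts for gene-level counting, in which reads with several genes or positions were dropped. The submitters' processing notes list STAR 2.7.10a, featureCounts 2.0.2 and DESeq2 1.30.1. The labels name RiboGone depletion with a SMARTer stranded kit, whereas the methods name RiboMinus and an Ion kit. The values deposited by the authors are signal, that is read numbers scaled by library (divisors recovered as 0.558 to 1.37) and rounded. They are not counts, and the count test of the methods was not run.

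Members are the rows of chromosome 10 that start between 80.6 and 82.7 Mb, and the window, the gene lists and the tests were chosen with earlier results of these data known. Fits used limma 3.58.1 (R 4.3.3) on log2(signal + 1) over 14227 genes, with all 6 libraries and no covariate. The fit was tested on simulated data. Overlaps, coding sequences and shared 75-base stretches came from GENCODE M21 (GRCm38), which holds 99.7% of the table's gene identifiers. The design asked for RefSeq proteins to count C2H2 fingers (C, 2 to 4 residues, C, 12 residues, H, 3 to 5 residues, H). GENCODE coding sequences were translated instead (Biopython 1.88). Named are the 4 genes *BC024063*, *Zfp873*, *Gm4924* and *Glt8d2*, called members, tested members with separate groups and at least 2-fold, the 2 tested genes inside and outside each end, the 10 highest per length in Ctrl, the highest of each role list, and *Sirt6* and *Tdg*. Outside this rule, *Gm10778*, *Zfp433*, *Gm3055*, *Gm32687*, *Zfp781*, *Zfp938* and *Zfr2* were chosen for mention after their values were seen. Members outside the rule are not in the counts of named members below. Alternatives were other scalings, pseudocounts, filters and thresholds, robust empirical Bayes, a replicate block and leaving out each library. Limma voom on recovered reads was added after seeing the data.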

Additional observations from a re-analysis of the deposited data

How the results depend on the processing

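Limits lie in depth and in sequence. A telomeric member such as *1190007I07Rik* rests on a few reads per library, and copies such as *Gm3055* and *Zfp781* share most of their sequence.

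The number of members called higher, 4, was 3 with limma voom and with the replicate block and 2 at an adjusted p of at most 0.01. With a mean signal of at least 50 it was 0, since the called members have lower means and were not tested. Leaving out 1 library gave 2 to 4, with 2 without any 1 Sirt6mKO library, when *BC024063* and *Glt8d2* remained called. These 2 genes kept their calls in all 6 such fits. The number called lower, 1, was 2 with no minimum fold (*Jsrp1* joined), and 0 at an adjusted p of at most 0.01, with a mean signal of at least 50, with a pseudocount of 0.1, with limma voom and with the replicate block. It was 0 (lowest and highest) without any 1 library. The cause was not tested for the losses other than those of the filter. With no filter on low values the counts were again 4 and 1, but only 3 of the 5 called members remained, since *Gm4924* and *1190007I07Rik* lost their calls and *Gm8290* (higher) and *Gm32687* (lower) were called in their place. The number of members whose groups did not overlap, 16, was 5 with a mean signal of at least 50, where fewer genes were tested, and 17 to 23 when 1 library was left out, since fewer libraries then have to separate. The median log2 fold change, 0.014, was -0.097 to 0.056 when 1 library was left out, with the lowest value without Ctrl replicate 3.

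With the replicate block the members called higher were 3 and lower 0, and *Gm4924* and *1190007I07Rik* lost their calls at log2 fold changes of 1.28 and -1.88. Same-numbered libraries of both groups correlated at 0.023, 0.066 and 0.188 in their deviations from the group means, and unlike-numbered ones at -0.129 to 0.073. Over all tested genes the block called 268 higher and 167 lower, where the main fit called 223 and 145. The numbers were not taken as pairs, a question that these values do not settle. Of the 5 called members 0 changed sign under any alternative in which they were tested, and of the 16 other named members 8 changed sign under at least 1. Of the values of named members outside the leave-one-out fits 175 kept their call or stayed within the spread between libraries and 7 lost a call.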
